A study of Mus musculus with 18 samples.

Results

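The JAK kinases and the STAT factors outside the interferon set are described here in cultured splenic B cells of lupus-prone mice. The members were chosen by symbol, as the 4 Janus kinases Jak1, Jak2, Jak3 and Tyk2 and the 5 factors Stat3, Stat4, Stat5a, Stat5b and Stat6. These are 9 of the 23420 genes in the files, and all 9 passed the filter on low values in both experiments.

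Janus kinases are tyrosine kinases bound to the inner ends of cytokine receptor chains. When a cytokine brings the chains together, the kinases phosphorylate the receptor and then the STAT proteins that dock on it, and the paired STATs enter the nucleus and bind DNA. In B cells, Jak1 and Jak3 serve the receptors that share the common gamma chain, and Tyk2 and Jak2 serve that of interleukin-12. Jak1 and Tyk2 serve the receptors of interleukin-10 and type I interferon, and Jak1 and Jak2 that of interferon gamma. Stat6 carries the interleukin-4 signal and Stat3 carries those of interleukins 6, 10 and 21. Toll-like receptors do not themselves use JAKs. TLR7 and TLR9 signal through MyD88, among others to NF-kappa B and MAP kinases. A change of a JAK or STAT transcript after a TLR agonist is a change of RNA, and its effect on cytokine signals was not tested.

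B cells were purified from spleen by negative selection and cultured for 4 h, in 6 groups of 3 libraries each. All mice were of the MRL/lpr strain, which carries the lpr mutation of Fas, and were 5 to 7 weeks old. In the Tlr7-/- arm, female mice were either Tlr9het or Tlr997. Tlr9het mice are Tlr9+/-, with 1 wild-type and 1 null allele, a control that the study chose to match the amount of TLR9 protein. Tlr997 mice are homozygous for a TLR9 whose signaling TIR domain is exchanged for the one of TLR7 at the endogenous locus. In this arm 4000000 cells received no agonist or CpG ODN 1826 at 10 µg/ml. In the other arm, male mice labelled Tlr9-/- carried Tlr779, which is TLR7 with the TIR domain of TLR9, and 5000000 cells received no agonist or CL097, a TLR7 agonist, at 5 µg/ml. Tlr9het and Tlr779 therefore signal through a TLR9 TIR domain and Tlr997 signals through that of TLR7. One label field gives Tlr9-/- where the titles give the Tlr9het control, and the titles were followed. The alleles were present in every cell of the mouse and not in B cells alone. Libraries of Tlr9-/- mice with an unaltered TLR7 were not analysed here. The arms differ in sex, genotype, agonist and cell number, which cannot be told apart, so no test was made between the CL097 and the CpG responses.

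Each value is a log2 CPM, the log2 of a count scaled to library size and normalized by the authors, in which 1 unit is a doubling. Counts were not among the values, so the depth of each library is unknown and no counting interval can be given; the summed CPM of a library lay between 991992 and 1004412. Of the libraries, unstimulated Tlr997 replicate 3 stood somewhat apart, with correlations across 11676 genes of 0.944 and 0.955 with the others of its group, where all other pairs within groups lay between 0.976 and 0.989. Leaving it out changed the call of Jak2 and Jak3 in the CpG response of Tlr997 and those of Stat5a and Stat5b in the difference of responses, and no other call of a member, with the values given beside those results. The 9 B cell markers were all over 0 log2 CPM in every group, and their summed CPM lay between 6325 and 8295 in unstimulated cells and between 2161 and 4001 with an agonist. The 10 T cell markers summed to between 4.27 and 38.5 CPM and the 8 NK cell markers to between 6.79 and 31.0 CPM. Of the T cell markers, 9 had means over 0 log2 CPM with CpG in both genotypes. Without agonist, 6, 3 and 1 of them did in Tlr9het, Tlr997 and Tlr779, and 2 with CL097. Only Trat1 lay under -2 log2 CPM in every library. The 8 macrophage markers summed to between 92.5 and 465 CPM. Sums of 4 erythroid markers lay between 12.3 and 484 CPM, and in unstimulated Tlr997 alone between 20.8 and 478. Those of 7 neutrophil markers lay between 9.35 and 99.2 CPM. The 5 plasma cell markers summed to between 1082 and 1652 CPM without and 2111 and 2633 with an agonist, where Irf4 was called higher and Sdc1 and Xbp1 lower. The part of these cells in the members' values was not tested. Tlr7 lay between 2.68 and 5.36 log2 CPM in the Tlr7-/- arm and between 6.61 and 7.82 in the Tlr779 arm, while Tlr9 lay between 7.02 and 8.08 in the Tlr7-/- arm and between 6.93 and 7.47 in the Tlr779 arm. The Tlr9 level of the Tlr779 libraries thus does not show the loss of Tlr9 that their label names, and whether the null allele still gives a transcript is not stated in the sources used here. By the study's design, Tlr779 holds Tlr9 TIR sequence in the Tlr7 locus and Tlr997 holds Tlr7 TIR sequence in the Tlr9 locus. Reads of these inserts could be counted to the gene they came from, which was not tested. The levels of the Tlr7-/- arm pool Tlr9het with Tlr997. A value per gene does not resolve the altered part of either receptor gene, so these levels are no check of the TIR domains.

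Adjusted p-values throughout are those of limma after Benjamini-Hochberg adjustment over all genes tested, and a call required a value under 0.05 together with a log2 fold change beyond 0.5 in either direction. The SDs and SEs measure the spread left in the deposited values, from which an offset per gene and replicate number seems to have been removed. They may not be the full spread between samples. The labels name 3 mice per genotype but tie no library to a mouse.

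With CpG or CL097, Stat5a and Stat3 rose and Tyk2 fell in all 3 responses. Stat5a rose 4.15-fold in Tlr9het, 6.17-fold in Tlr997 and 4.53-fold in Tlr779. Stat3 rose 2.06-fold, 1.69-fold and 2.72-fold in the same order, and Tyk2 was 3.25-fold, 2.64-fold and 2.03-fold lower. Stat5b, the close relative of Stat5a, fell in Tlr9het only among the called values, by 0.53 on the log2 scale, and Jak2 and Stat4 were called lower in Tlr9het and Jak3 in Tlr997. Jak1 and Stat6 were not called in any response.

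Counted against all genes, this is not an unusual number of calls. In Tlr9het, 2 of 9 members were called higher, where 29.7% of the 11494 genes tested were, and 4 of 9 were called lower, where 28.2% of all genes were. In Tlr997, 2 of 9 were higher against 29.6% of all genes and 2 of 9 lower against 26.0%. With CL097 in Tlr779, 2 of 9 were higher against 22.7% of the 11082 genes tested and 1 of 9 lower against 23.6%. The median log2 fold change of the members was -0.49, -0.24 and 0.12 in the 3 responses, beside medians of 0.04, 0.07 and -0.02 over all genes. The rise of Stat5a was large among all genes. Only 517 of 11494 genes had a larger log2 fold change than Stat5a in Tlr9het, 272 in Tlr997 and 201 of 11082 with CL097.

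**Figure D1:**
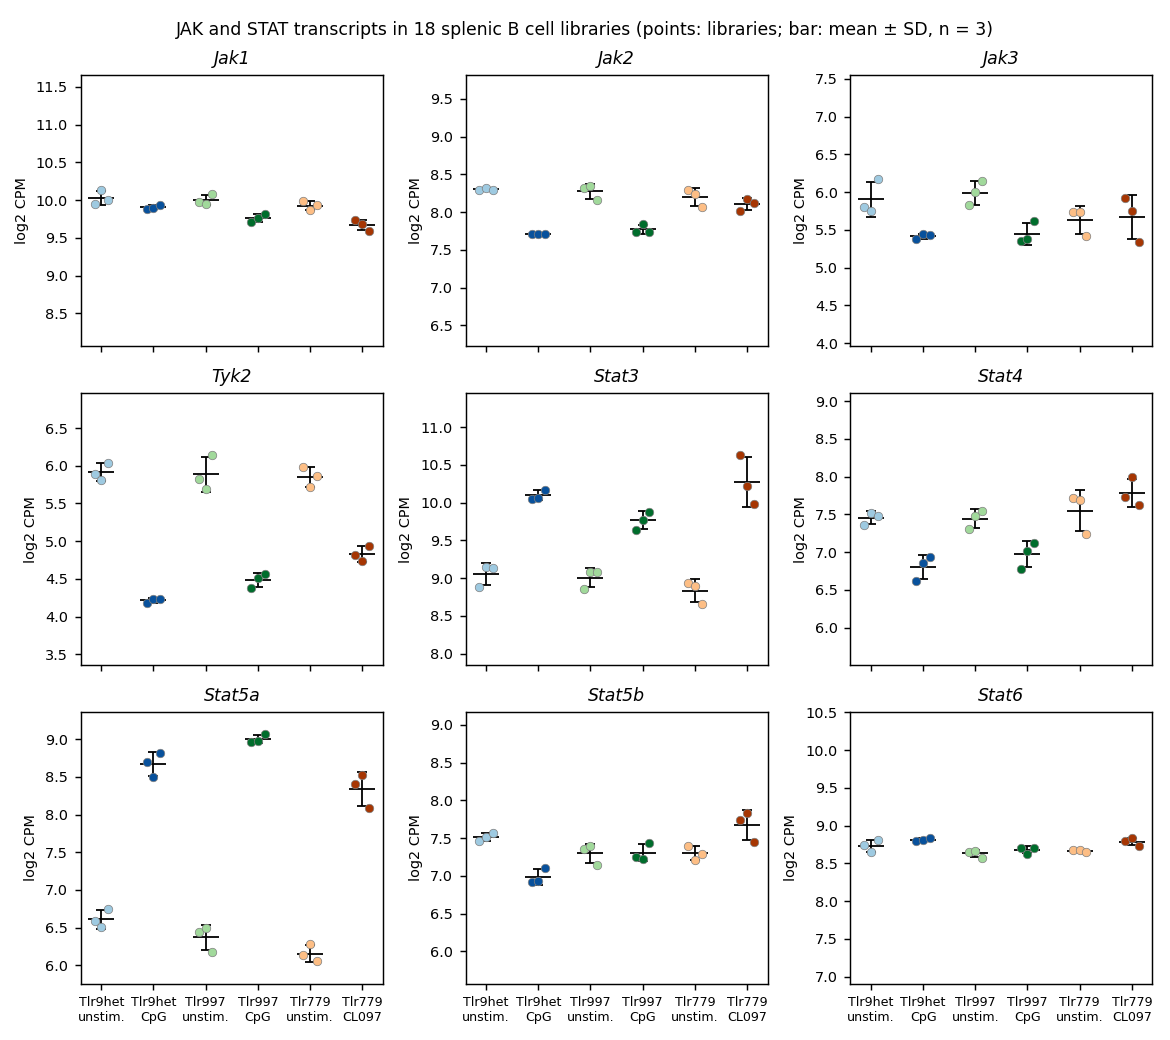
Log2 CPM of the 9 members (vertical axis, each panel spanning the same number of log2 units) in the 18 libraries of the 6 groups (horizontal axis), with points for libraries and bars for the mean ± SD of 3. Stat5a lies between 6.05 and 6.75 without agonist and between 8.09 and 9.06 with one, and Tyk2 moves the other way, from between 5.70 and 6.14 to between 4.18 and 4.94.

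Stat5a and Stat5b are the paired transducers of interleukin-2, interleukin-7 and other growth-promoting cytokines. Stat5a was at 6.58, 6.51 and 6.75 log2 CPM in the 3 unstimulated Tlr9het libraries and at 8.69, 8.50 and 8.82 with CpG. In Tlr997 it was at 6.44, 6.50 and 6.18 without and at 8.96, 8.98 and 9.06 with CpG. In Tlr779 it was at 6.13, 6.28 and 6.05 without and at 8.41, 8.52 and 8.09 with CL097. Every stimulated library lay above every unstimulated library of any genotype. The log2 fold changes were 2.05 ± 0.10 (SE, n = 3 per group, adjusted p = 3.6e-10), 2.63 ± 0.10 (adjusted p = 5.7e-11) and 2.18 ± 0.12 (adjusted p = 5.9e-06).

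Stat5b had a different pattern in each of the 3 responses. In Tlr9het it went from 7.46, 7.51 and 7.57 log2 CPM to 6.91, 6.93 and 7.11 with CpG, and the groups did not overlap. In Tlr997 it was at 7.35, 7.39 and 7.15 without and at 7.25, 7.23 and 7.43 with CpG, and the groups overlapped. In Tlr779 it was at 7.40, 7.22 and 7.29 without and at 7.75, 7.83 and 7.44 with CL097, where each treated library lay above each untreated one. The log2 fold change in Tlr9het was -0.53 ± 0.08 (adjusted p = 4.2e-05), and without the Tlr9het CpG replicate 1 it was -0.49 and short of the fold threshold. In Tlr997 it was 0.01 ± 0.08, with a 95% interval from -0.16 to 0.18. In Tlr779 it was 0.37 ± 0.11 with an adjusted p of 0.016, under the fold threshold and not called.

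Because the members differ in length, levels were compared between genes only per kb of merged exons. Per kb, Stat5b exceeded Stat5a in unstimulated cells, with a log2 difference of Stat5a minus Stat5b of -1.26 ± 0.09 (SD, n = 3) in Tlr9het, -1.29 ± 0.04 in Tlr997 and -1.51 ± 0.18 in Tlr779. With the agonist the order was the other way round in all 9 stimulated libraries, at 1.32 ± 0.11, 1.33 ± 0.06 and 0.30 ± 0.03. The CL097 libraries lay between 0.28 and 0.33 below all CpG libraries, which lay between 1.20 and 1.42. With the length of the longest transcript in place of merged exons, each difference was higher, at -0.50, -0.52 and -0.75 without agonist and 2.08, 2.09 and 1.06 with it, so that the sign was the same and the size depends on the gene models. The 2 genes have stretches in common. Of the 75-base windows of the annotated Stat5a transcripts, 5.12% occur exactly in Stat5b transcripts, and of those of Stat5b 6.99% occur in Stat5a, so part of the reads could not be assigned by sequence. No other pair of members had such a window in common.

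The 2 genes are neighbours. On build mm10 (GRCm38, GENCODE M21), Stat5b lies at chr11:100780731-100850724 on the minus strand, Stat5a at chr11:100859351-100885169 on the plus strand and Stat3 at chr11:100885098-100939540 on the minus strand. The starts of Stat5b and Stat5a are 8627 bases apart and point away from each other, and the 3′ ends of Stat5a and Stat3 overlap by 72 bases. Of the 2 STAT members called lower in Tlr9het, Stat4 lies on chromosome 1. Stat5b, the other, lies within 158810 bases together with Stat5a and Stat3, the STAT members with the largest rises. The sequences before the starts of these 3 genes and of Tyk2, the member that fell most, are shown. Stat5a, Stat3 and Tyk2 moved most, and Stat5b lies beside Stat5a. They are RefSeq sequences of GRCm38.p6 that lie before the transcript start and outside annotated exons, read in the direction of the gene, with capitals for a match to a motif searched.
Stat5a, chr11:100860234-100860344, plus strand: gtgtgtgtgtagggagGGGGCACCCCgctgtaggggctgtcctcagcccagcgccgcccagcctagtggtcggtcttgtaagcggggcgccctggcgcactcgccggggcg
Stat5b, chr11:100850725-100850831, minus strand: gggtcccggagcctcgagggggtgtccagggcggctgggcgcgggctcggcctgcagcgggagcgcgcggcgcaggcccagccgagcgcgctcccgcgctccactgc
Stat3, chr11:100939541-100939790, minus strand: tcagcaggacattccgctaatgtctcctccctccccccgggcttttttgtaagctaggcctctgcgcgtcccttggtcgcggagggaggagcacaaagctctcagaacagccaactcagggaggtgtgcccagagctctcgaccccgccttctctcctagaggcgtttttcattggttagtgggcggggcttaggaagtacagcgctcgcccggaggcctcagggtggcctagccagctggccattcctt
Tyk2, chr9:21131276-21131525, minus strand: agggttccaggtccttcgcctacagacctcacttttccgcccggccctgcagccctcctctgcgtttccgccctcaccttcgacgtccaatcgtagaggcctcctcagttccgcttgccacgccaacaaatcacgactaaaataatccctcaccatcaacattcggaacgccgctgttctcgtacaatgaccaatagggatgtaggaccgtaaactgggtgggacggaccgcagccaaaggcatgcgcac

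The Stat5a stretch precedes the second of its 2 RefSeq starts and lies between annotated exons of the gene. Motifs were searched on both strands of the 250 bases before each of the 12 RefSeq starts of the 9 members, namely the STAT motif TTCNNNGAA, the AP-1 motif TGANTCA, an interferon motif of GAAA repeated after 2 bases, and the kappa B consensus. Matches to one do not overlap matches to another in these windows. The capitals in Stat5a are a kappa B match, from 234 to 225 bases before the second start. Of 32851 promoters of this length, 3.90% held the kappa B consensus, 7.02% the STAT motif, 6.75% the AP-1 motif and 2.98% the interferon motif. The one other match was an interferon motif, GAAAGTGAAA, from 97 to 88 bases before the second start of Stat4. The other 10 windows held none of these letters, which says nothing of binding.

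The other members lie at chr4:101152367-101265282 (Jak1, minus strand), chr19:29251828-29313080 (Jak2, plus strand), chr8:71676296-71690575 (Jak3, plus strand), chr10:127642986-127660957 (Stat6, plus strand) and chr1:51987148-52107189 (Stat4, plus strand).

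Stat3 transduces interleukin-6, interleukin-10 and interleukin-21 signals in B cells. It was at 8.88, 9.14 and 9.14 log2 CPM in unstimulated Tlr9het and at 10.05, 10.07 and 10.17 with CpG. In Tlr997 it rose from 8.86, 9.09 and 9.08 to 9.64, 9.78 and 9.88. In Tlr779 it rose from 8.94, 8.90 and 8.66 to 10.64, 10.22 and 9.99. The stimulated and unstimulated libraries did not overlap in any genotype, and the CL097 libraries were the most scattered, with an SD of 0.33. The log2 fold changes were 1.04 ± 0.09 (adjusted p = 1.2e-07), 0.76 ± 0.09 (adjusted p = 3.4e-06) and 1.44 ± 0.16 (adjusted p = 0.00012). Stat3 shared 72 exonic bases with Stat5a on the other strand, 0.756% of its exonic length. Markers of other cell types moved in both directions with the agonist. The 8 macrophage markers summed to between 129 and 465 CPM in unstimulated libraries and to between 92.5 and 202 CPM with an agonist. The 6 dendritic cell markers, summed, were higher with it, without overlap in any genotype. They summed to between 34.2 and 38.8 CPM without and 68.3 and 82.8 CPM with CpG in Tlr9het, to between 35.6 and 38.6 and between 69.1 and 87.7 in Tlr997, and to between 28.0 and 41.5 and between 72.9 and 97.5 with CL097 in Tlr779. Of these markers, 4 had means over 0 log2 CPM in each group. Of 4 tested, 2 had log2 fold changes above 0 and 2 below in each CpG response, and 3 and 1 with CL097. Zbtb46 went from a mean of 3.91 to 5.71 log2 CPM in Tlr9het, from 3.92 to 5.78 in Tlr997 and from 3.45 to 5.67 in Tlr779, and Siglech from 2.21 to 1.72, from 1.51 to 0.70 and from 0.99 to 0.27. The part of these cells in the values of Stat3 and Stat5a was not tested.

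Stat4, best known as the transducer of interleukin-12 in T and NK cells, was at 7.36, 7.52 and 7.48 log2 CPM in unstimulated Tlr9het and at 6.62, 6.85 and 6.93 with CpG. The groups did not overlap and the log2 fold change was -0.65 ± 0.10 (adjusted p = 4.9e-05). In Tlr997 it went from 7.304, 7.478 and 7.542 to 6.78, 7.02 and 7.12, also without overlap, and the change of -0.47 ± 0.10 (adjusted p = 0.00086) was short of the fold threshold. It passed that threshold without unstimulated Tlr997 replicate 1 or without Tlr997 CpG replicate 3, at -0.54 each. With CL097 in Tlr779 the value was 0.23 ± 0.14 (adjusted p = 0.19), with overlapping groups. The T cell markers, summed, lay between 8.04 and 17.9 CPM in unstimulated Tlr9het and between 16.9 and 38.5 CPM with CpG, and the NK cell markers between 8.27 and 15.3 and between 13.3 and 31.0 CPM. In bulk samples, fewer cells of a type and less RNA per cell cannot be told apart. Of the exonic bases of Stat4, 26.7% also belong to the annotated gene Gm28177 on the same strand, and reads there could be lost or split.

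Stat6, the transducer of interleukin-4, varied little. Its 18 values lay between 8.57 and 8.84 log2 CPM, and the log2 fold changes were 0.08 ± 0.05, 0.05 ± 0.05 and 0.12 ± 0.06, none of them called. The widest of the 3 intervals, that of CL097, reached from -0.02 to 0.25, so that changes over the fold threshold lie outside all 3.

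Among the kinases, Tyk2 fell most. Tyk2 serves the receptors of type I interferon, interleukin-12 and interleukin-10. It was at 5.90, 5.81 and 6.04 log2 CPM in unstimulated Tlr9het and at 4.18, 4.23 and 4.24 with CpG. In Tlr997 it went from 5.82, 5.70 and 6.14 to 4.38, 4.51 and 4.56, and in Tlr779 from 5.98, 5.72 and 5.86 to 4.82, 4.74 and 4.94 with CL097. No stimulated library reached the lowest unstimulated one. The log2 fold changes were -1.70 ± 0.11 (adjusted p = 8.3e-09), -1.40 ± 0.11 (adjusted p = 6.8e-08) and -1.02 ± 0.10 (adjusted p = 6.6e-05). Tyk2, at chr9:21104068-21131243 on the minus strand, shares 8.07% of its exonic bases with 1700084C06Rik on the other strand, and whether the counting used strand is not given in the sources used here.

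Jak2, the kinase of the interleukin-12 and interferon gamma receptors, lay in a very narrow band in Tlr9het. It was at 8.30, 8.32 and 8.30 log2 CPM without and at 7.70, 7.72 and 7.71 with CpG, a log2 fold change of -0.59 ± 0.05 (adjusted p = 3.2e-07). In Tlr997 it went from 8.32, 8.34 and 8.16 to 7.74, 7.84 and 7.74 without overlap. That change, -0.50 ± 0.05 (adjusted p = 2.0e-06), lay on the fold threshold and was not counted as a call. It passed the threshold at -0.56 without unstimulated Tlr997 replicate 3 and at -0.53 without Tlr997 CpG replicate 2. In Tlr779 the groups overlapped, at 8.30, 8.25 and 8.07 without and 8.02, 8.17 and 8.12 with CL097, and the value was -0.10 ± 0.08 (95% interval -0.29 to 0.09).

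Jak3 and Jak1 act together at receptors with the common gamma chain. Jak3 was at 5.80, 5.74 and 6.17 log2 CPM without and at 5.37, 5.44 and 5.43 with CpG in Tlr9het, a difference of -0.49 ± 0.12 (adjusted p = 0.0018) that was short of the fold threshold. It passed that threshold without unstimulated Tlr9het replicate 1 (-0.54) or 2 (-0.57) and without Tlr9het CpG replicate 2 (-0.51). In Tlr997, Jak3 was at 5.830, 5.999 and 6.149 without and at 5.35, 5.38 and 5.62 with CpG and was called, at -0.54 ± 0.12 (adjusted p = 0.00088). The call was lost without unstimulated Tlr997 replicate 3 (-0.47) or Tlr997 CpG replicate 1 (-0.50). In Tlr779 the log2 fold change of Jak3 was 0.04 ± 0.16. Jak1 had values between 9.59 and 10.13 in all 18 libraries. Its changes of -0.12 ± 0.06, -0.24 ± 0.06 (adjusted p = 0.0022) and -0.26 ± 0.07 (adjusted p = 0.012) were all below the fold threshold, and in each genotype the stimulated libraries lay below the unstimulated ones.

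The summed B cell markers were lower with the agonist in every genotype, between 6554 and 7389 CPM without and 2161 and 2282 with it in Tlr9het, between 6325 and 7020 and between 3272 and 4001 in Tlr997, and between 6505 and 8295 and between 2852 and 3682 in Tlr779. Single markers went both ways, with Pax5 called higher in Tlr9het and Fcer2a in Tlr997. Of the 9 markers, 7, 6 and 8 had log2 fold changes below 0 in the 3 responses, and 2, 3 and 1 above. The part of these markers in the members' values was not tested.

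**Figure D2:**
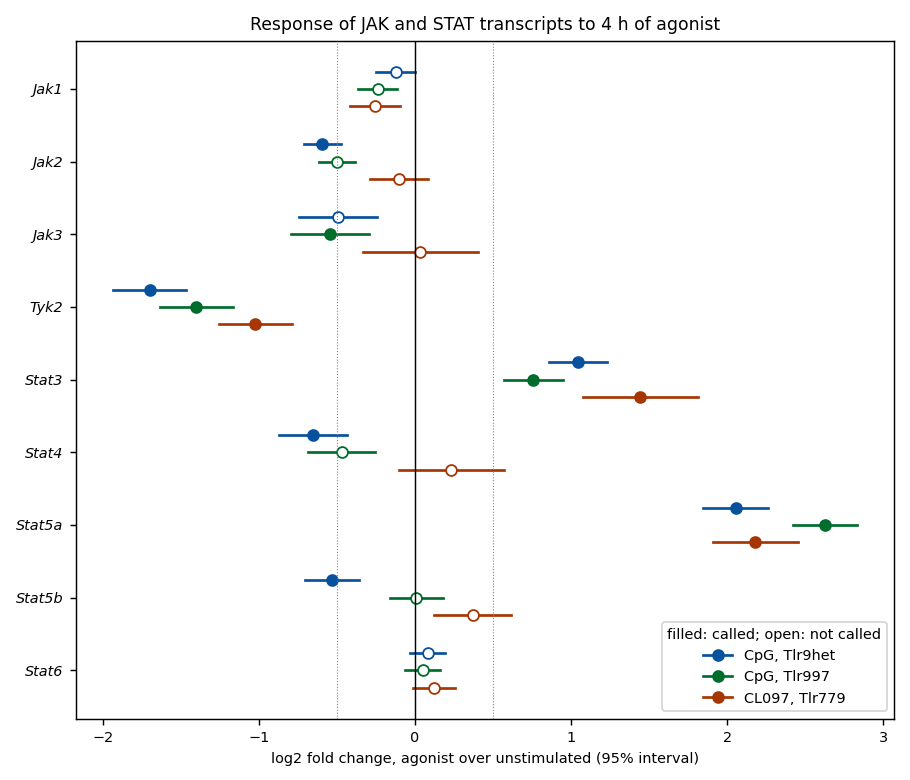
Log2 fold change (horizontal axis) of each member (vertical axis) with CpG in Tlr9het and Tlr997 and with CL097 in Tlr779, with 95% intervals, filled points for called values and dotted lines at the fold threshold of 0.5. Stat5a lies between 2.05 and 2.63, Stat3 between 0.76 and 1.44 and Tyk2 between -1.70 and -1.02, while the 3 points of Stat6 lie between 0.05 and 0.12.

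Per kb of exons, Jak1 had the highest level of the 9 members in 5 of the 6 groups, at 7.17 ± 0.10 log2 CPM per kb (SD, n = 3) in unstimulated Tlr9het. In that group Stat6 followed at 6.60, Jak2 at 5.97, Stat3 at 5.80, Stat4 at 5.50 and Stat5b at 5.04. Each of these lay above the next in every library. Stat5a at 3.78 and Jak3 at 3.49 overlapped, and Tyk2 was lowest at 3.13. With CpG in Tlr9het the order was Jak1 at 7.05, Stat3 at 6.85, Stat6 at 6.68, Stat5a at 5.83, Jak2 at 5.38, Stat4 at 4.85, Stat5b at 4.51, Jak3 at 2.99 and Tyk2 at 1.44, and no neighbours overlapped. In Tlr997 with CpG, Stat6 at 6.54 and Stat3 at 6.52 overlapped, as did Stat4 at 5.02 and Stat5b at 4.84. With CL097 in Tlr779, Stat3 at 7.03 and Jak1 at 6.82 overlapped at the top of the order. Parts of the order depend on the gene models. With the longest transcript as the length, Stat3 at 6.46 lay above Jak2 at 5.97 in unstimulated Tlr9het, Stat5a at 4.63 lay above Jak3 at 3.89 without overlap, and Jak3 overlapped Tyk2 at 3.64. The order in Tlr9het with CpG was the same with either length, and in Tlr997 with CpG Stat5a at 7.02 lay above Stat6 at 6.76.

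Of the summed level per kb of the 4 kinases, Jak1 made up 63.5% ± 1.8 (SD, n = 3) in unstimulated Tlr9het and 71.7% ± 0.35 with CpG. Tyk2 made up 3.88% ± 0.40 and 1.46% ± 0.02. The summed level of the kinases went from 228 ± 9.4 to 185 ± 2.9 CPM per kb. In Tlr997 the share of Tyk2 went from 3.87% ± 0.55 to 1.86% ± 0.06 with CpG, and in Tlr779 from 4.00% ± 0.25 to 2.30% ± 0.24 with CL097. The share of Jak1 in Tlr779 was 63.8% ± 1.9 without and 62.2% ± 1.4 with CL097, a difference smaller than the spread. These shares depend on the gene models. With the longest transcript as the length, the mean share of Jak1 lay between 69.4% and 77.7% in the 6 groups.

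Of the summed level per kb of the 5 STATs, Stat6 made up the largest share in unstimulated cells, at 39.6% ± 2.1 in Tlr9het, 39.3% ± 1.6 in Tlr997 and 40.7% ± 2.5 in Tlr779. With the agonist, the shares of Stat3 and Stat6 were 35.3% ± 0.24 and 31.4% ± 1.0 in Tlr9het, 28.8% ± 1.1 and 29.4% ± 1.5 in Tlr997, and 35.3% ± 4.8 and 27.1% ± 2.6 in Tlr779. The share of Stat5a went from 5.62% ± 0.34 to 17.5% ± 1.3 in Tlr9het, from 5.09% ± 0.52 to 22.6% ± 0.32 in Tlr997 and from 4.40% ± 0.27 to 12.2% ± 0.94 in Tlr779. The share of Stat4 was 18.5% ± 0.85, 19.6% ± 1.5 and 21.4% ± 2.4 without agonist and 8.84% ± 0.76, 10.2% ± 0.78 and 15.4% ± 1.8 with it. The summed level of the 5 STATs was higher with the agonist, where that of the kinases was lower. It went from 245 ± 11 to 327 ± 16 CPM per kb in Tlr9het, from 229 ± 8.0 to 318 ± 16 in Tlr997 and from 228 ± 15 to 373 ± 44 in Tlr779, and in each genotype the stimulated and unstimulated sums did not overlap. These shares depend on the gene models used for length. With the longest transcript in place of merged exons, Stat5a was at 7.76%, 7.01% and 6.11% of the STAT sum without agonist and at 22.1%, 28.4% and 15.8% with it. In Tlr997 with CpG, Stat3 was then at 31.7% and Stat6 at 23.9%, so that Stat6 was below both Stat3 and Stat5a.

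**Figure D3:**
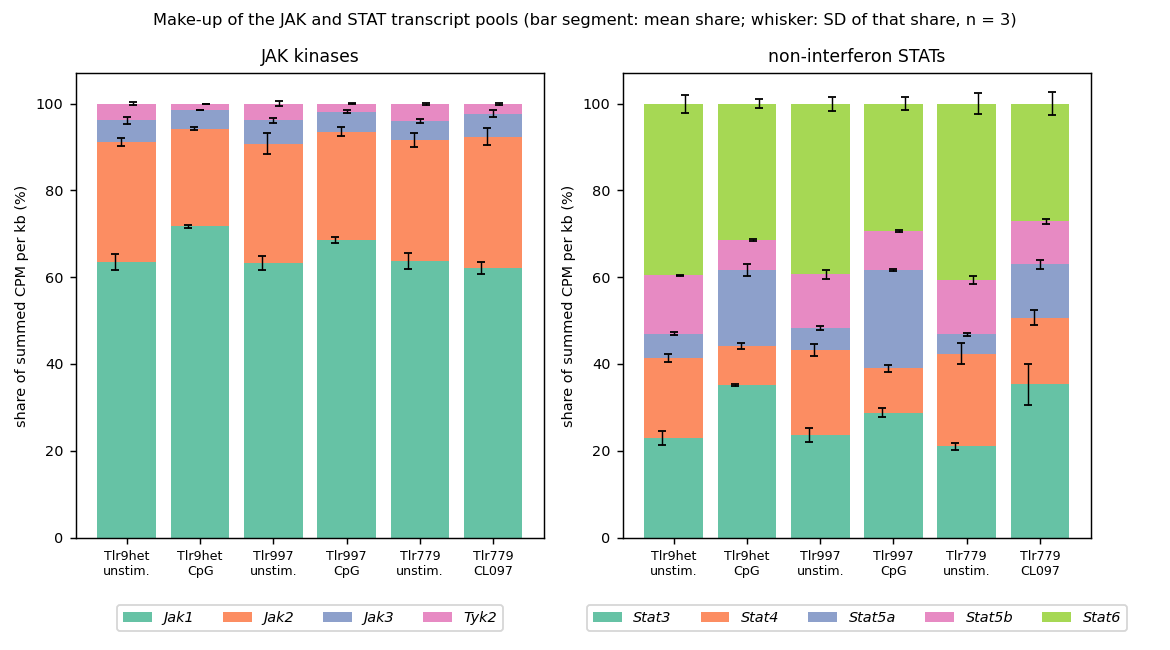
Share of each member (vertical axis, percent of the summed CPM per kb of its family) in the 6 groups (horizontal axis), as stacked means with whiskers for the SD of 3 libraries, for the kinases on the left and the STATs on the right. Jak1 holds between 62.2% and 71.7% of the kinase sum, and Stat5a widens from about 4.40% to 5.62% without agonist to between 12.2% and 22.6% with one. Lengths are those of merged exons, and the shares depend on them.

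Whether the TIR domain changed these transcripts was asked by comparing Tlr997 with Tlr9het in the same arm. Without agonist, 0 of 9 members were called by limma, where 0.0174% of all genes were. At an unadjusted p under 0.05 were 2 of the 9, where 10.8% of all genes were, of which Stat5a was at -0.24 ± 0.10 and Stat5b at -0.22 ± 0.08, both lower in Tlr997 (adjusted p = 0.42 and 0.38). With CpG, 0 of 9 were called, where 2.72% of all genes were, and 6 of 9 had an unadjusted p under 0.05, where 19.0% of all genes had one. No difference passed the fold threshold. Stat3 was lower in Tlr997 by a log2 difference of -0.33 ± 0.09 (adjusted p = 0.042) and Stat5b higher by 0.32 ± 0.08 (adjusted p = 0.032), with no overlap between the groups in either. Stat5a was 0.33 ± 0.10 higher (adjusted p = 0.063) and Tyk2 0.27 ± 0.11 (adjusted p = 0.19). For Jak2, Jak3 and Stat4 the 95% intervals of this difference were -0.05 to 0.18, -0.22 to 0.29 and -0.04 to 0.39.

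The CpG response itself differed between the genotypes for the 2 STAT5 genes. The response of Stat5a was larger in Tlr997 by 0.57 ± 0.14 on the log2 scale (adjusted p = 0.049), and that of Stat5b by 0.54 ± 0.11 (adjusted p = 0.029), which is a fall in Tlr9het against no called change in Tlr997. These were 2 of 9 members, where 0.687% of all genes were called higher in Tlr997, and the other 7 were not called. Both calls are close to the thresholds and were lost in most of the fits that left out 1 library. For Stat5a, 1 of the 12 fits without a library kept the call, with differences between 0.48 and 0.65 and adjusted p-values between 0.041 and 0.12. For Stat5b, 5 of 12 kept it, with differences between 0.46 and 0.60 and adjusted p-values between 0.027 and 0.086. With the replicate number as a block shared by the 4 groups, the adjusted p was 0.054 for Stat5a and 0.031 for Stat5b, with a block within each genotype 0.011 and 0.021, and with a block in 1 model of all 18 libraries 0.13 and 0.098. Part of the difference lies in the unstimulated libraries, where both genes were lower in Tlr997 by the values above. Without unstimulated Tlr997 replicate 3, the library that stood apart, the difference of responses was 0.48 for Stat5a and 0.46 for Stat5b, both short of the fold threshold.

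**Figure D4:**
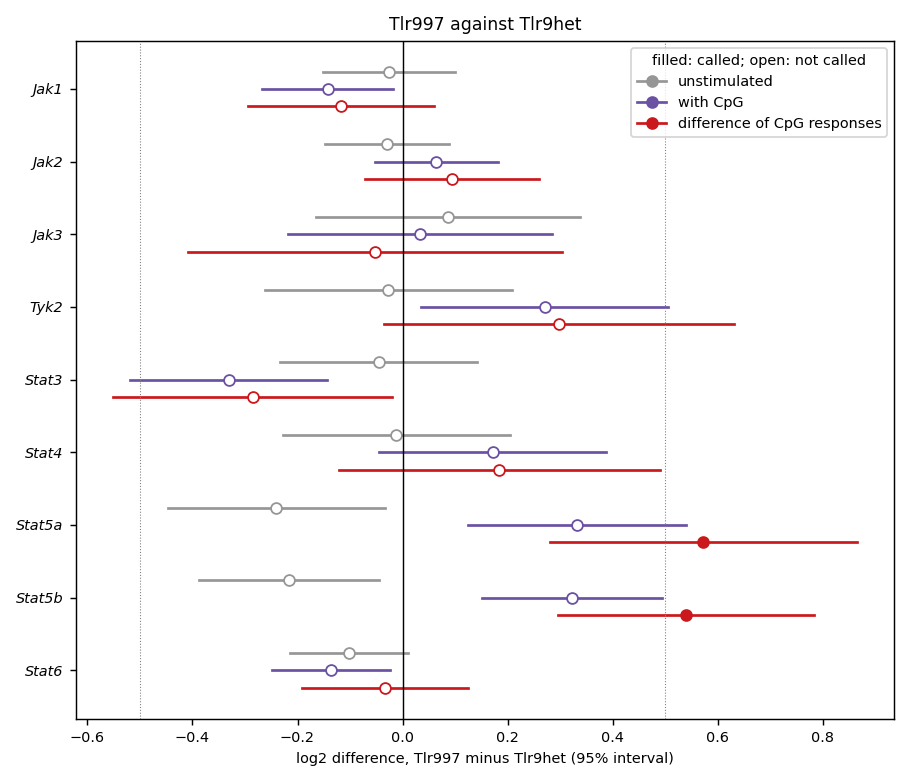
Log2 difference of Tlr997 minus Tlr9het (horizontal axis) for each member (vertical axis), unstimulated, with CpG, and as the difference of the CpG responses, with 95% intervals, filled points for called values and dotted lines at the fold threshold of 0.5. The 2 filled points are the differences of responses of Stat5a, at 0.57, and Stat5b, at 0.54.

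For the members called in all 3 responses, the genes with the most similar set of 3 log2 fold changes were taken from the 11012 genes tested in both arms. For Tyk2 these were C2cd5, Ankmy2 and Klc4, at root mean square differences of 0.016, 0.037 and 0.043. For Stat3 they were Lrrc25, Nbn and B4galt5, at 0.063, 0.068 and 0.076. For Stat5a they were Agrn, Piwil2 and Atp7b, at 0.064, 0.12 and 0.15. Agrn, for example, had log2 fold changes of 2.15, 2.57 and 2.19. The likeness is over 3 values per gene, and the 3 responses rest on 18 libraries.

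The rest of the pathway was taken from 4 lists and a pair of genes, Stat2 and Irf9, whose proteins act together in type I interferon signaling. The lists were written with earlier results of these data known, so their counts are descriptions and no independent test. Stat2 was called lower with CpG in both genotypes, with log2 fold changes of -1.53 ± 0.11 (adjusted p = 2.8e-08) in Tlr9het and -0.74 ± 0.11 (adjusted p = 4.2e-05) in Tlr997, and with CL097 in Tlr779 it was at 0.16 ± 0.30 (adjusted p = 0.68). With CpG, Stat2 was 0.72 ± 0.11 (adjusted p = 0.0022) higher in Tlr997 than in Tlr9het, and its difference of responses was 0.79 ± 0.16 (adjusted p = 0.022). The last call was kept in 6 of 12 fits without a library, with differences from 0.68 to 0.92, and it was lost in those without any Tlr9het CpG library, unstimulated Tlr9het replicate 1 or 2, or Tlr997 CpG replicate 2. With the replicate block of all 18 libraries neither of these 2 calls between genotypes held (adjusted p = 0.11 with CpG and 0.30 for the difference of responses). Irf9 had log2 fold changes of -0.50 ± 0.07 (adjusted p = 1.2e-05), -0.31 ± 0.07 and -0.03 ± 0.15 in the 3 responses. The first of these lay on the fold threshold and ranged from -0.54 to -0.47 as single libraries were left out, short of it without replicate 1 or 2 of either Tlr9het group.

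Of 27 receptor chains tested that signal through JAKs, 5 were called higher and 11 lower in Tlr9het, where 29.7% of all genes were called higher and 28.2% lower. In Tlr997 5 and 12 were, against 29.6% and 26.0% of all genes, and with CL097 in Tlr779 3 and 10 were, against 22.7% and 23.6%. The median log2 fold change of the chains was 0.09, -0.39 and -0.12, and in Tlr9het 14 of the 27 lay above 0 and 13 below. Il2ra, the alpha chain of the interleukin-2 receptor that signals through Jak1, Jak3 and STAT5, rose by 3.68 ± 0.13, 3.40 ± 0.13 and 3.17 ± 0.12 on the log2 scale. Il9r, a partner of the common gamma chain, had log2 fold changes of -2.65, -2.35 and -2.68, and Il6ra, which signals to Stat3, had -2.53, -2.43 and -2.84. Lifr went from a mean of 3.27 to -1.95 log2 CPM in Tlr9het, from 2.34 to -1.22 in Tlr997 and from 1.39 to -1.21 in Tlr779. Il10ra, the interleukin-10 receptor chain that holds Jak1, fell in all 3 responses, with log2 fold changes of -0.85 in Tlr9het, -1.65 in Tlr997 and -0.91 in Tlr779. Ifngr1, the Jak1-binding chain of the interferon gamma receptor, was called lower in Tlr997, at -0.83 ± 0.08 (adjusted p = 3.5e-07) and was at 0.10 ± 0.08 in Tlr9het. The difference of responses was -0.93 ± 0.11 (adjusted p = 0.00096) for Ifngr1 and -0.80 ± 0.09 (adjusted p = 0.00097) for Il10ra. For Ifngr1 the means were 7.09 and 7.19 log2 CPM in Tlr9het without and with CpG and 7.13 and 6.29 in Tlr997.

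The inhibitors of the pathway were called in both directions, with 6 higher and 4 lower of 19 in Tlr9het, 7 and 4 in Tlr997, and 8 and 3 with CL097. The shares of all genes called higher and lower were 29.7% and 28.2%, 29.6% and 26.0%, and 22.7% and 23.6%, so that the counts in both CpG responses are near the background. Socs3, which binds and blocks JAKs at the receptors that use Stat3, went from a mean of 3.61 to 9.14 log2 CPM in Tlr9het, from 3.42 to 7.69 in Tlr997 and from 3.13 to 8.40 in Tlr779. Socs1 and Cish, of the same family, were also called higher in all 3 responses, Socs1 by 2.56, 1.32 and 2.03 and Cish by 2.04, 2.96 and 2.08 on the log2 scale. Socs2 was called in Tlr997 and Tlr779, but 1 unstimulated Tlr997 library was at -4.57, near the lowest values of the files, and in Tlr779 the call did not hold with the replicate block of all 18 libraries (adjusted p = 0.21). With CpG, Socs3 was -1.45 ± 0.22 (adjusted p = 0.0024), Ptpn1, a phosphatase that acts on Jak2 and Tyk2, -1.03 ± 0.10 (adjusted p = 7.5e-05) and Socs1 -0.82 ± 0.20 (adjusted p = 0.030) in Tlr997 relative to Tlr9het. Usp18, an inhibitor of type I interferon signaling, was 1.21 ± 0.25 higher (adjusted p = 0.012). The difference of responses was called for Socs1, at -1.24 ± 0.28 (adjusted p = 0.043), and for Ptpn1, at -1.01 ± 0.14 (adjusted p = 0.0028). The 2 calls of Socs1 between genotypes were kept in 7 and 3 of 12 fits without a library, that of Usp18 in 9, and the lost ones include those without any Tlr9het CpG library for Socs1 and without Tlr9het CpG replicate 1 or 2 or Tlr997 CpG replicate 2 for Usp18. With the block of all 18 libraries the adjusted p was 0.17 and 0.20 for Socs1 and 0.11 for Usp18.

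Of the 20 cytokines that signal through JAKs, 10 passed the filter in the Tlr7-/- arm and 7 in Tlr779, mostly through the stimulated groups, so the counts of 9 called higher with CpG in either genotype and 6 with CL097 are no measure of the list. Il12b, the p40 chain of interleukin-12, went from a mean of -0.30 to 7.87 log2 CPM in Tlr9het, from 1.11 to 6.72 in Tlr997 and from -3.17 to 7.42 in Tlr779. Its difference of responses was -2.56 ± 0.40 (adjusted p = 0.0055, and 0.18 with the block of all 18 libraries). Part of this difference lies in the low unstimulated values, with means of -0.30 in Tlr9het and 1.11 in Tlr997. With CpG, Il12b was called lower in Tlr997 than in Tlr9het. That call was kept in 6 of 12 fits without a library, with differences from -1.22 to -1.08 over the 12 fits. Il6 was at 6.83, 6.20 and 6.79 log2 CPM with the agonist and Il10 at 5.62, 5.20 and 6.02, each from means under 2. Ifnb1, the type I interferon beta, was at 1.77, 0.45 and 0.38 with the agonist and under -3 without.

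Of 17 known STAT target genes, 12 were called higher and 1 lower in Tlr9het, 11 and 1 in Tlr997, and 13 and 1 with CL097. Of all genes, 29.7%, 29.6% and 22.7% were called higher in the same order, and 28.2%, 26.0% and 23.6% lower. The median log2 fold change of the list was 1.86, 1.35 and 1.54, beside the medians of 0.04, 0.07 and -0.02 over all genes. Because the list was written with earlier results of these data known, these counts and medians are no evidence of STAT activity. Many of these genes are also targets of NF-kappa B, and the list holds Socs1, Socs2, Socs3 and Cish, which the list of inhibitors holds too. Bcl2l1, which encodes the survival factor Bcl-xL, had log2 fold changes of 4.51, 3.93 and 2.95, and Ccnd2, a cyclin, of 3.62, 2.97 and 2.35. The one gene called lower was Mcl1, another survival factor, at -1.21, -0.74 and -1.04. The response of Ccnd2 was smaller in Tlr997 than in Tlr9het by -0.65 ± 0.10 (adjusted p = 0.0044), and Bcl6, a repressor of germinal center B cells, was -0.55 ± 0.09 (adjusted p = 0.0041) in Tlr997 relative to Tlr9het with CpG, and was short of the fold threshold without Tlr997 CpG replicate 2, at -0.48, or replicate 3.

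**Figure D5:**
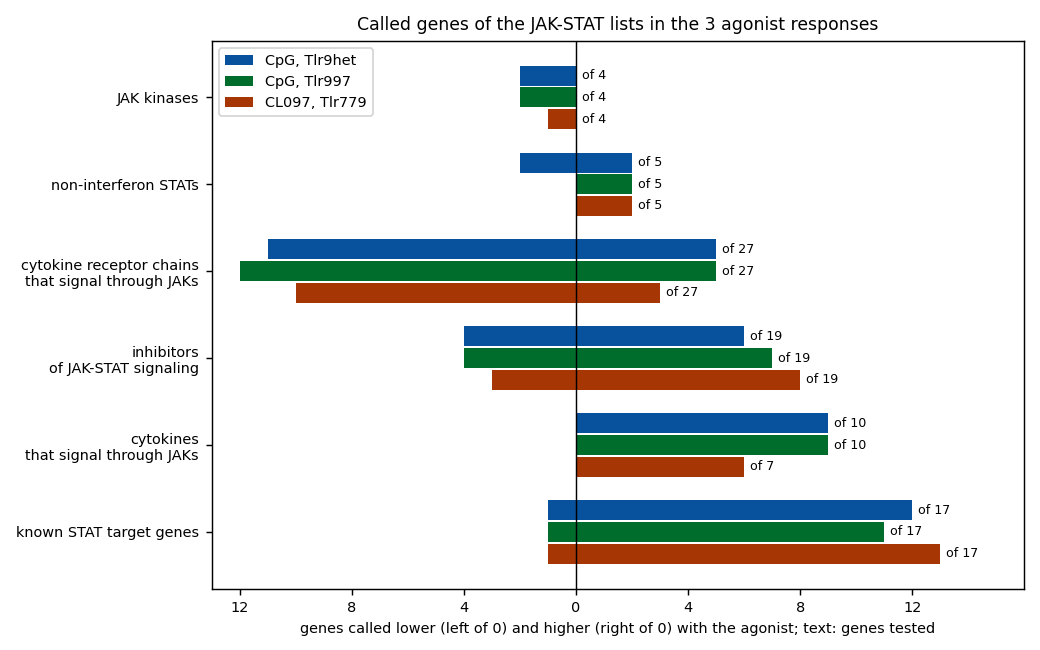
Number of genes called lower (left of 0) and higher (right of 0) with the agonist (horizontal axis) for the 2 groups of members and the 4 lists (vertical axis), with 1 bar per response and the number tested beside it. Receptor chains were called lower 10 to 12 times of 27 and higher 3 to 5 times, and STAT targets were called higher 11 to 13 times of 17. Of all genes tested, 22.7% to 29.7% were called higher and 23.6% to 28.2% lower in the 3 responses. The lists were written with earlier results of these data known.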

How the data were processed

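RNA came from B cells that beads had enriched from MRL/lpr spleens, in 18 libraries. The authors prepared stranded mRNA libraries, trimmed reads with Trim Galore 0.6.5, aligned them to mm10 with STAR 2.6.1a, counted them per gene with featureCounts (Subread 2.0.1) and applied quantile normalization and voom. The deposited values are log2 CPM with no counts, so depth is unknown and no count test was used. Of 6209 genes under -4 in all libraries, 6008 had 1 value per replicate number in all 6 groups, and for 524 of these it differed between numbers, as if an offset per gene and number had been removed from the deposited values. A fit without a block takes no account of this.

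Groups followed the labels. limma 3.58.1 (R 4.3.3) was fitted to the log2 values with a variance trend, for genes over 0 log2 CPM in at least 3 fitted libraries. The 12 libraries of the Tlr7-/- arm entered 1 model and the 6 Tlr779 libraries another. Calls required a p under 0.05 after Benjamini-Hochberg adjustment and a log2 fold change beyond 0.5 in either direction. Fold changes are on the log2 CPM scale, which understates those of low genes. The steps were tested on simulated data. Same-numbered libraries deviated together in Tlr9het (r of 0.51, 0.29 and 0.51 for the numbers 1 to 3) and Tlr779 (0.25, 0.49 and 0.33). In Tlr997 those of number 1 did (0.37), and those of numbers 2 and 3 hardly did (0.08 and 0.02). The labels name no shared animal.

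Members and lists were chosen with earlier results of these data known. Named genes were the 9 members, up to 4 called genes per list with the largest changes in the responses and up to 4 in the genotype comparisons, the 3 genes most like each member called in all 3 responses, and Stat2 and Irf9; not every gene that met the rule is named, and 1 gene fixed by name is not reported here. Markers absent under their symbol were matched through RefSeq synonyms. Lengths and positions are from GENCODE M21. Alternatives tried were other filters, thresholds, centring, weights and models, replicate blocks and leaving out each library.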

Additional observations from a re-analysis of the deposited data

Results flagged for a closer look

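The CpG response differed between Tlr997 and Tlr9het by the interaction test for 2 members, Stat5a, with a log2 difference of 0.57, and Stat5b, with 0.54. Among the pathway genes it differed for Stat2 (0.79), Ccnd2 (-0.65), Ifngr1 (-0.93), Il10ra (-0.80), Il12b (-2.56), Ptpn1 (-1.01) and Socs1 (-1.24). Of all 11494 genes tested, 177 were called. The calls of Stat5a, Stat5b, Stat2 and Socs1 were kept in 1, 5, 6 and 3 of the 12 fits that left out a library. With the block of all 18 libraries, these calls and that of Il12b were lost. Part of the Il12b difference lies in its low unstimulated values. No group had enough libraries for a search for outlying samples.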

How the results depend on the processing

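Of 1251 values of the members under alternatives, 1193 kept their side of the thresholds, 39 lost a call, 19 gained one and 0 called values changed sign. A fold threshold of 1 left 4060, 3768, 74, 46 and 2582 called genes in the CpG responses of Tlr9het and Tlr997, the CpG comparison of genotypes, the difference of responses and the CL097 response, with 3 and 2 members called in the 2 CpG responses and 0 in the difference of responses. With no fold threshold, 7 members were called in the CpG response of Tlr997, 5 with CL097, 2 between genotypes with CpG, and 680 genes between genotypes with CpG. Without the filter on low values there were 187 genes with CpG, 0 unstimulated and 78 with 0 members in the difference of responses. With library weights there were 485 genes with CpG and 377 with 0 members in the difference. Fitting only the groups compared left 0 genes unstimulated, no variance trend left 98 genes and 0 members in the difference, and all 18 libraries in 1 model left 0 members there.

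The difference of responses had 177 called genes and 2 members. With the replicate block shared by groups it had 215 genes and 1 member, with the block within genotype 328 genes and 2 members, and with the block in 1 model of all 18 libraries, chosen after seeing the data, 97 genes and 0 members. The replicate block gave 6691, 6456 and 5384 called genes in the 3 responses and changed no other member's call, except that Jak2 in Tlr997, on the threshold, was called in the block of all 18 libraries. The cause was not tested.

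Leaving out each library gave 6416 to 6867 called genes and 5 to 7 members in the CpG response of Tlr9het, 6178 to 6473 and 3 to 5 in Tlr997, 4700 to 5088 and 3 to 3 with CL097, 187 to 410 genes between genotypes with CpG, 2 to 4 unstimulated, and 87 to 295 genes and 0 to 2 members in the difference of responses. The genotype comparison with CpG had 313 called genes and 187 without Tlr9het CpG replicate 1, and the unstimulated one 2 and 4 without unstimulated Tlr997 replicate 2 or 3. The 177 genes of the difference of responses became 295 without unstimulated Tlr997 replicate 3, 87 without unstimulated Tlr9het replicate 1 and 101, 101 and 90 without Tlr9het CpG replicates 1, 2 and 3. Where a group was left with 2 libraries, the spread of all groups was used. Depth is unknown and limits what can be said of genes near the lowest values.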
